A study of Homo sapiens with 4 samples.

Results

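The 10 genes described here are targets and feedback inhibitors of the RAS-ERK pathway, which carries the signal of receptor tyrosine kinases to the nucleus. They were taken by symbol from the deposited count matrices, and all 10 of them were among the 36601 features of each matrix: ETV1, ETV4 and ETV5, SPRY1, SPRY2 and SPRY4, SPRED1 and SPRED2, DUSP6, and ERRFI1. The nuclei came from stage 1 enteric ganglioids, free-floating 3D cultures that hold enteric neurons and progenitor cells, and all were made from the human embryonic stem cell line H9. Nuclei were sequenced by a droplet method with 3′ counting in 2 control samples and 2 samples treated with PP121 at 2 µM from day 15 to day 20. The labels number the differentiation replicates of this 1 line 1 and 2 in each group. PP121 is a small molecule that inhibits several receptor tyrosine kinases, and by the deposited dates the nuclei were collected long after it was withdrawn. The deposited annotation gives day 42 for replicate 1 and day 38 for replicate 2 of both groups, whereas the study's text gives a single day for all samples. All samples had been in medium with FGF2 before day 15 and were in medium with GDNF, which signals through the RET receptor, from then on.

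In this pathway an activated receptor leads through RAS, RAF and MEK to the kinase ERK, and ERK activity switches on genes that then dampen the same signal. ETV1, ETV4 and ETV5 are the PEA3 group of ETS transcription factors, whose expression follows FGF and other receptor signals in many embryonic tissues, and ETV5 is also a target of GDNF and RET signalling. Sprouty proteins (SPRY1, SPRY2, SPRY4) and SPRED proteins (SPRED1, SPRED2) restrain the step from receptor to RAF, DUSP6 is a phosphatase that inactivates ERK, and ERRFI1 (MIG6) binds and inhibits receptors of the EGFR family.

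The authors annotated 14812 nuclei, of which 4283 and 3030 were in the control samples and 4587 and 2912 in the PP121 samples, with medians of 6289 to 7071 UMIs (counted RNA molecules) per nucleus. Of the deposited class names, enteric neurons had 637 to 785 UMIs per 1000000 UMIs (CPM) summed over 6 neuronal markers, against 144 to 291 in progenitors 1 and 2, and mesenchymal nuclei had 1945 to 2609 CPM over 6 mesenchymal markers, against 180 or less elsewhere. The epithelial name was weakly borne out: its 4 markers summed to 43.5 to 76.1 CPM there and to 13.5 to 92.5 CPM in mesenchymal nuclei, and no cluster of its own was found when all samples were clustered together. Crest or glial markers (6 genes) summed to 84.6 to 95.8 CPM in progenitor 2 and 57.4 to 66.3 CPM in progenitor 1. Elsewhere they gave 36.3 to 43.3 CPM in neurons and 59.5 to 68.5 CPM in the unknown class. The epithelial and mesenchymal values were 50.2 to 81.2 CPM and 6.73 to 75.7 CPM, so the progenitor 1 name was weakly borne out. The cycling markers MKI67 and TOP2A summed to 83.0 to 142 CPM in the unknown class and 102 to 179 CPM in progenitor 2. Annotated nuclei of any pair of samples shared 0 to 8 barcodes. A further deposited column names another sample than the labels for the nuclei of both control samples (a control sample of the other replicate in 1 case and of stage 2 in the other), and the groups were taken from the labels. In the values below, the first of a pair of values in a group is always replicate 1 (day 42) and the second replicate 2 (day 38).

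By the GENCODE v29 annotation of GRCh38, ETV1 spans chr7:13891228-13991425, ETV4 chr17:43527844-43579620, ETV5 chr3:186046308-186110318, SPRY1 chr4:123396795-123403760, SPRY2 chr13:80335976-80340951, SPRY4 chr5:142310427-142326455, SPRED1 chr15:38252326-38357249, SPRED2 chr2:65310851-65432637, DUSP6 chr12:89347232-89353271 and ERRFI1 chr1:8004404-8026308. SPRY1 and SPRED1 lie on the plus strand and the other members on the minus strand. ETV4 lies within DHX8 on the opposite strand over its whole length, and SPRY4, ERRFI1, DUSP6 and ETV5 have antisense neighbours. ETV5 also shares 4651 bases with DGKG on its own strand. Whether strand was used in counting is not stated, so reads of these overlaps cannot be told apart where they fall in shared sequence. DHX8 was at 62.9 to 66.0 CPM in neurons of all samples, with r = -0.26 to ETV4 over 23 sums of a class in a sample, and DGKG was at or below 3.01 CPM in neurons. Over the same sums the level of SPRY4-AS1 had r = 0.68 to SPRY4, and that of AL034417.4, antisense to ERRFI1, r = 0.58 to ERRFI1.

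ETS factors bind sites with the core GGAA, and the letters CCGGAA of a common ETS site were therefore searched on both strands in the 250 bases before each RefSeq start site (GRCh38.p14). Of the 10 members, 8 matched an entry, which gave 17 windows, and ETV4 and ETV5 had none. The letters were found in 5 windows of 3 members (ETV1, SPRY1 and SPRY2), and in 5104 of 35116 windows of all genes (14.5%). The ETV1 windows of start sites 13990706 and 13990702 overlap almost fully, so the same match may be counted again. The most upstream windows of these 3 members are shown. The capitals mark CCGGAA, which begins 136 bases before the start site in ETV1 and 142 bases before it in SPRY2. It is absent from this window of SPRY1, whose match lies before another start site (123398386). A match is a run of letters and not a known site.
ETV1, chr7:13991426-13991675, minus strand: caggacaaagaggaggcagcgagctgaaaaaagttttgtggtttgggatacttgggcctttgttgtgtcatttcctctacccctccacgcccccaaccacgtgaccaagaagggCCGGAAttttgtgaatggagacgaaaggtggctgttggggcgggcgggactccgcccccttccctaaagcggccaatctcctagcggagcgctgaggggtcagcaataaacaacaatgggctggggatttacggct
SPRY2, chr13:80341127-80341376, minus strand: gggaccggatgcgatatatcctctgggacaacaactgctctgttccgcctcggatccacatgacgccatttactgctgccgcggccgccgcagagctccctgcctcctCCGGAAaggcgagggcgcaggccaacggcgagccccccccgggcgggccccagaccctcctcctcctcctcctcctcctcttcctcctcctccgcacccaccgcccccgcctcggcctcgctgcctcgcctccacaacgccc
SPRY1, chr4:123396545-123396794, plus strand: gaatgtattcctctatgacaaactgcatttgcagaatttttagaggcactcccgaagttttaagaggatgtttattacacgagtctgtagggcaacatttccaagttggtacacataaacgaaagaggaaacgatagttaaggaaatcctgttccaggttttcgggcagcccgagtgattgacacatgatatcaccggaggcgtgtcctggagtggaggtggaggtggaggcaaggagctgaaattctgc

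Over classes, 8 of the 10 members had a higher mean level in progenitor 2 than in enteric neurons, the exceptions being ETV4 and ERRFI1. The share of all genes that were higher in progenitor 2 was not computed, so this count is not read as a trait of the members. Classes are clusters of these same nuclei, so their differences are given as a description with no test. The members followed no single order: the ETV1 mean was highest in the unknown class, that of SPRY1 in progenitor 1, and those of SPRY4, SPRED1 and SPRED2 in mesenchymal nuclei.

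Among the ETV factors, ETV1 was the most uneven. It was at 2.64 and 4.15 CPM in control neurons and 2.73 and 6.74 CPM in PP121 neurons, with a mean of 4.06 ± 1.91 CPM (SD, n = 4). In progenitor 2 it was at 32.8 and 34.6 CPM in control and 20.7 and 32.6 CPM with PP121, which is 7.42 times the neuronal mean. Every progenitor 2 value was above every neuronal value. In the unknown class it was at 71.0 and 128 CPM in control and 68.5 and 54.6 CPM with PP121, which is 19.8 times the neuronal mean (10.5 times in the joint classes, which came from clustering all samples together). ETV4, by contrast, was nearly even, with class means from 10.7 ± 4.55 CPM in progenitor 1 to 25.1 ± 4.92 CPM (n = 3) in the epithelial class and 19.0 ± 3.06 CPM in neurons, and the ranges of all neighbouring classes overlapped. ETV5 had means of 30.4 ± 4.90 CPM in the unknown class, 26.3 ± 6.81 CPM (n = 3) in the epithelial class, 25.4 ± 16.5 CPM in mesenchymal nuclei, 13.8 ± 3.98 CPM in progenitor 2, 8.98 ± 4.24 CPM in neurons and 5.01 ± 1.90 CPM in progenitor 1. Each class overlapped the next in this order, whereas the unknown class (26.8 to 37.3 CPM) lay above progenitor 2 (8.70 to 18.2 CPM) in every sample.

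The Sprouty genes differed from each other in where they were highest. SPRY1 was at 32.6 and 23.1 CPM in progenitor 1 of control and at 14.1 and 13.1 CPM with PP121, and its mean there was 4.95 times that in neurons, where it was at 3.54 to 4.64 CPM. All 4 progenitor 1 values exceeded all values in neurons and progenitor 2 (4.01 to 7.77 CPM). Of the 360 SPRY1 UMIs in progenitor 1, 21.9% were in the 10 nuclei with most. SPRY2 was highest in the unknown class, at 16.2 to 26.8 CPM over the 4 samples, and did not overlap progenitor 2, the next class, at 10.9 to 15.1 CPM. Its mean was lower in progenitor 1 (9.93 ± 1.28 CPM) and neurons (7.98 ± 0.918 CPM), which overlapped. SPRY4 was low, with a mean of 1.79 ± 0.690 CPM in neurons and 3.21 ± 1.75 CPM in progenitor 2.

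SPRED1 gave the clearest order of classes. Its mean was 263 ± 69.6 CPM in mesenchymal nuclei, 153 ± 7.24 CPM in progenitor 2 and 148 ± 20.2 CPM in the unknown class. It was 97.7 ± 13.6 CPM in progenitor 1, 83.8 ± 3.09 CPM (n = 3) in the epithelial class and 61.1 ± 4.68 CPM in neurons. Of its 1754 UMIs in mesenchymal nuclei, 73 were in 1 nucleus. The mesenchymal values did not overlap those of progenitor 2, nor those of the unknown class the values of progenitor 1. Progenitor 2 and the unknown class overlapped, as did progenitor 1 and the epithelial class. With joint classes the mesenchymal values overlapped those of the next class. SPRED2 was at 153 ± 42.1 CPM in mesenchymal nuclei, 124 ± 37.9 CPM (n = 3) in the epithelial class, 102 ± 6.80 CPM in progenitor 2, 98.6 ± 20.3 CPM in the unknown class, 68.7 ± 10.6 CPM in neurons and 62.3 ± 10.6 CPM in progenitor 1. Each class overlapped the next in this order, whereas progenitor 2 (93.0 to 108 CPM) lay above neurons (54.2 to 78.8 CPM) in every sample.

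DUSP6 was near the limit of detection, with 170 UMIs in 155 of the 14812 nuclei and class means of 1.00 to 3.35 CPM. At this depth no order of its classes could be drawn, and free RNA in the droplets cannot be told apart from expression. ERRFI1 was the most even of the members, from 50.2 ± 2.34 CPM in progenitor 2 and 56.5 ± 5.00 CPM in neurons to 71.6 ± 11.5 CPM in progenitor 1, with overlapping neighbours throughout.

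**Figure D1:**
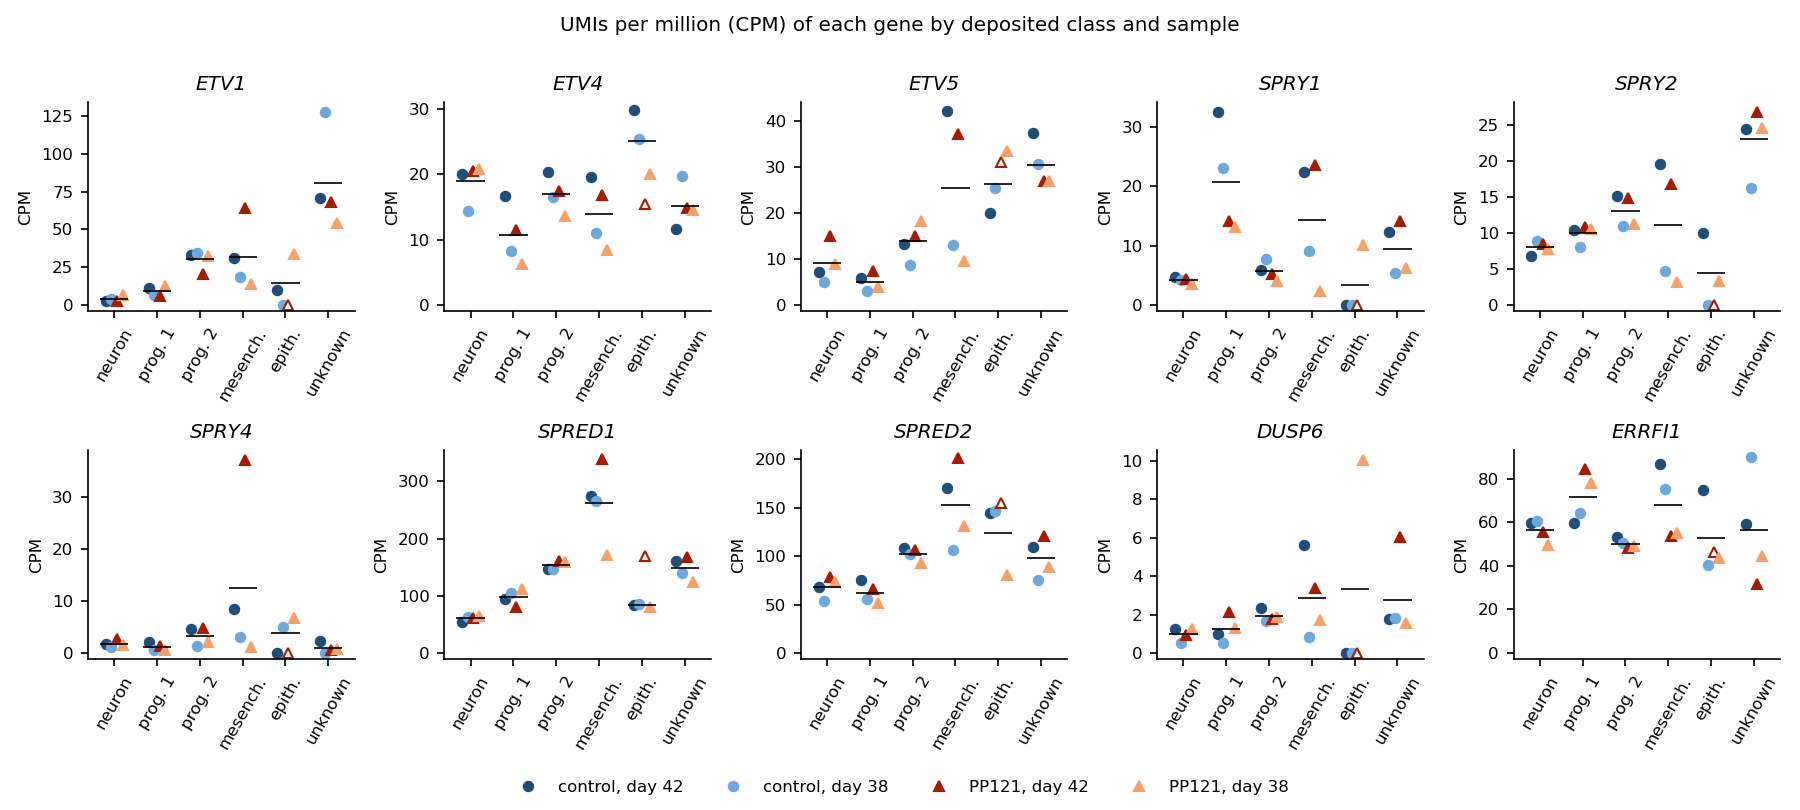
Level of each gene in UMIs per 1000000 (CPM, vertical axes) by deposited class (horizontal axes) in the 4 samples, with a line at the mean of the sums of at least 20 nuclei and open symbols for smaller sums. ETV1 is highest in the unknown class, SPRY1 in progenitor 1 and SPRED1 in mesenchymal nuclei, while ERRFI1 differs little between classes.

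Over the 23 sums of at least 20 nuclei, the members' levels, taken as log2(CPM + 1), were positively correlated in 31 of 45 pairs. These are descriptions over sums that share libraries and depth, and the share of positive pairs among other genes was not computed. The highest r was between ETV5 and SPRED2 (0.71) and between ETV1 and SPRY2 (0.71), and the lowest between ETV4 and SPRY1 (-0.46). Among 11661 genes with a mean of at least 10 CPM, those most like SPRED1 were PTN (r = 0.93), RASSF3 (0.93) and ROR1 (0.92). The immediate early gene EGR1, another ERK-responsive gene, was second for SPRED2 (r = 0.87), after AC100830.1 (0.88) and before CCDC102B (0.87). For the ETV factors the leading genes were AL354809.1 (0.85), TRIM56 (0.85) and DIAPH2-AS1 (0.83) with ETV1, SH2B3 (0.85), SMIM4 (0.82) and FAR2 (0.82) with ETV4, and RNF213 (0.87), MAMDC2 (0.86) and LINC00271 (0.86) with ETV5. They were AL392172.1 (0.84), TYMS (0.84) and ANKRD42 (0.82) with SPRY2, and KCTD9 (0.79), MIS12 (0.79) and N4BP1 (0.78) with ERRFI1. SPRY1, SPRY4 and DUSP6 were below 10 CPM on average and were not compared in this way.

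Whether PP121 given early left a mark on these genes was asked by comparing both PP121 samples with both control samples in each class by the two-sided quasi-likelihood test of edgeR, adjusted over all genes tested. Without a block, no member passed in any class. Since the replicate number marks a shared day in the deposited annotation, a second fit took the replicate as a block (1 residual degree of freedom). Its value accompanies the first wherever the call differs. That samples of 1 number form a pair is an assumption, given the column that names other samples for the controls. In simulated counts with 200 genes changed 2-fold, the fit without the block recovered 0% of them in neurons and in progenitor 1. The fit with the block recovered 62% and 73%. These counts gave both groups the same replicate effect and 1 fixed small spread, and changed only genes of at least 200 UMIs. That setting favours the block, so its recovery in the real data can be lower. In progenitor 1 members such as ETV5 (98 UMIs) and SPRY2 (181 UMIs) were below this limit. A lack of calls without the block is therefore not read as a lack of change. Under the block ETV5 rose in enteric neurons and in nitric oxide (NO) neurons, SPRED2 rose in enteric neurons, and SPRY1 fell in progenitor 1. None of these block calls held under every other choice of tool and class boundaries, as given beside each.

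In enteric neurons, ETV5 was at 7.18 and 5.05 CPM in control and 14.9 and 8.79 CPM with PP121, from 136 and 56 UMIs and from 251 and 77 UMIs. Both PP121 samples were above both controls, by 2.08-fold within day 42 and 1.74-fold within day 38. The log2 fold change was 0.99 ± 0.30 (SE), with an edgeR adjusted p of 0.377 without the block, and 0.99 ± 0.20 with an adjusted p of 0.000906 with it. SPRED2 was at 68.2 and 54.2 CPM in control and 78.8 and 73.4 CPM with PP121, higher in both PP121 samples by 1.16-fold within day 42 and 1.36-fold within day 38. Its log2 fold change was 0.35 ± 0.14, with an edgeR adjusted p of 0.403 without the block, and 0.36 ± 0.11 with an adjusted p of 0.0238 with it.

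Of the other members in neurons, ETV4 was also higher in both PP121 samples (20.6 and 20.9 CPM against 20.1 and 14.4 CPM) and ERRFI1 lower in both (55.4 and 49.8 CPM against 59.9 and 60.7 CPM), and neither passed under either fit. ETV1 (2.64 and 4.15 CPM in control, 2.73 and 6.74 CPM with PP121) and SPRY4 (1.74 and 1.08 CPM against 2.73 and 1.60 CPM) overlapped between groups, as did SPRY1, SPRY2, SPRED1 and DUSP6. Within days, PP121 was above control on both for ETV1 (1.04-fold on day 42 and 1.62-fold on day 38), SPRY4 (1.57-fold and 1.48-fold) and SPRED1 (1.14-fold and 1.04-fold), below it on both for SPRY1 (0.93 and 0.84 of control), and on opposite sides for SPRY2 and DUSP6, and none of these passed with the block. The members' median log2 fold change without the block was 0.26, beside -0.0022 over all genes tested.

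These counts are read against all genes. Without the block 0 of 21243 genes passed (0%), with 2549 at an unadjusted p under 0.05, 2 of them members, while DESeq2 called 87 genes and no member. With the block 3152 genes passed (14.8%), and 2 of 10 members. Groups did not overlap in 4 of 10 members, against 45.5% of all genes tested. The call of ETV5 also held with the block when all samples were clustered together without these genes (log2 fold change 0.87, adjusted p = 0.0120), where that of SPRED2 was lost, and both were lost with DESeq2 and the block. Leaving out 1 library at a time, without a block, gave ETV5 log2 fold changes of 0.58 without PP121 replicate 1 (edgeR adjusted p = 0.334), 0.81 without control replicate 2 (adjusted p = 0.635), 1.25 without control replicate 1 (adjusted p = 0.967) and 1.28 without PP121 replicate 2 (adjusted p = 0.00396). That of SPRED2 was 0.23 without control replicate 2 (adjusted p = 0.742).

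Among enteric neurons, the deposited transmitter identity marks 16 (0.695%) and 16 (1.28%) control nuclei and 143 (7.04%) and 61 (6.25%) PP121 nuclei as non-neuronal. ETV5 was also higher in both PP121 samples without them: in neurons with another identity than NO it was at 7.63 and 5.38 CPM in control and 15.7 and 8.75 CPM with PP121. The neuronal markers summed to 637 and 654 CPM in control neurons and 700 and 785 CPM with PP121, with 2 of 6 higher and 1 lower in both PP121 samples, and their part in the result was not tested. DGKG, which overlaps ETV5 on the same strand, was at 3.01 and 1.08 CPM in control and 1.43 and 1.14 CPM with PP121.

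In NO neurons, the neurons that the authors annotated as nitrergic from imputed NOS1 values, ETV5 was at 4.30 and 3.55 CPM in control and 12.0 and 6.96 CPM with PP121. These levels rest on 16 and 7 UMIs in control and on 37 and 6 UMIs with PP121, in 449, 230, 358 and 91 nuclei. Both PP121 samples were above both controls, with a log2 fold change of 1.46 ± 0.45 (edgeR adjusted p = 0.241) without the block and 1.42 ± 0.50 (adjusted p = 0.0426) with it. With the block, the log2 fold change was 1.42 with joint classes (edgeR adjusted p = 0.0895) and 1.43 with doublet candidates removed (adjusted p = 0.115), of like size but past the threshold in neither, and 1.38 with DESeq2, which gave no adjusted p. It was 0.94 without PP121 replicate 1 and without a block (edgeR adjusted p = 0.572).

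ERRFI1 was at 56.7 and 67.0 CPM in control NO neurons and 38.5 and 36.0 CPM with PP121. Both PP121 samples were well below both controls, with a log2 fold change of -0.60 ± 0.20 (edgeR adjusted p = 0.265) without the block and -0.57 ± 0.21 (adjusted p = 0.0518) with it, so it missed the threshold in both. In the other neurons ERRFI1 overlapped between groups, at 60.4 and 58.5 CPM in control and 59.8 and 49.9 CPM with PP121. Of 8 members tested in NO neurons (SPRY4 and DUSP6 were below edgeR's filter on low counts), 6 did not overlap between groups, against 47.8% of all genes tested. Without the block 0 of 15239 genes passed (0%), with 2131 at an unadjusted p under 0.05, and DESeq2 called 128 genes and no member. With the block 1594 genes passed (10.5%).

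In progenitor 1, SPRY1 was at 32.6 and 23.1 CPM in control and 14.1 and 13.1 CPM with PP121, from 129 and 92 UMIs and from 99 and 40 UMIs. Both PP121 samples were below both controls, at 0.43 of the control level on day 42 and 0.57 on day 38. The log2 fold change was -1.05 ± 0.29 (edgeR adjusted p = 1.00) without the block and -1.06 ± 0.26 (adjusted p = 0.00341) with it. ERRFI1 lay on the other side, at 59.6 and 64.5 CPM in control and 84.3 and 77.8 CPM with PP121, higher in both PP121 samples, and did not pass under either fit. SPRY2 was also higher in both PP121 samples, by a small margin (10.8 and 10.5 CPM against 10.4 and 8.03 CPM).

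With joint classes and the block the log2 fold change of SPRY1 was -0.56 (edgeR adjusted p = 0.638), and with DESeq2 and the block it was -1.05, with no adjusted p given by DESeq2. Under joint classes its levels in progenitor 1 were 27.6 and 22.0 CPM in control and 16.3 and 17.4 CPM with PP121, still apart. The joint clustering drew the border of this class elsewhere: 7.34% and 5.10% of the deposited progenitor 1 nuclei of control fell among the joint neurons, against 17.1% and 15.2% with PP121. The neuronal markers summed to 208 and 150 CPM in control progenitor 1 and to 291 and 211 CPM with PP121, with 2 of 6 higher in both PP121 samples, and the cycling markers MKI67 and TOP2A to 36.6 and 29.3 CPM and to 39.7 and 86.4 CPM. The part of either in the result was not tested. Of 8 members tested, 3 did not overlap between groups, against 29.3% of all genes tested. Without the block 0 of 16083 genes passed (0%), with 621 at an unadjusted p under 0.05, and DESeq2 called 1 gene and no member. With the block 593 genes passed (3.69%), 1 of the 8 members among them.

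In progenitor 2 no member passed under either edgeR fit, with 1 at an unadjusted p under 0.05 without the block and 2 with it. ETV5 was at 13.2 and 8.70 CPM in control and 15.01 and 18.2 CPM with PP121, above both controls in both PP121 samples, with a log2 fold change of 0.61 ± 0.25 (edgeR adjusted p = 0.517) without the block and 0.61 ± 0.22 (adjusted p = 0.0932) with it. With joint classes the ETV5 change was 0.24 (adjusted p = 0.836), and 0.26 with the block (adjusted p = 0.634). SPRED1 was also higher in both PP121 samples (161 and 159 CPM against 147 and 147 CPM), and SPRY1 (5.30 and 4.01 CPM against 5.93 and 7.77 CPM) and ERRFI1 (48.2 and 49.0 CPM against 53.5 and 50.3 CPM) were lower in both. Groups did not overlap in these 4 of 10 members, against 39.9% of all genes tested. Without the block 0 of 18885 genes passed (0%), with 1774 at an unadjusted p under 0.05, and DESeq2 called 96 genes and no member. With the block 1267 passed (6.71%). ETV1, at 32.8 and 34.6 CPM in control and 20.7 and 32.6 CPM with PP121, had a log2 fold change of -0.31 ± 0.23 (adjusted p = 0.735), and it passed only in the joint classes with the block (-0.63, adjusted p = 0.0106), where it was at 41.9 and 45.3 CPM in control and 23.7 and 32.7 CPM with PP121.

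Summed over all annotated nuclei, where more cells of a type and more RNA per cell cannot be told apart, ETV5 was at 10.5 and 7.40 CPM in control and 14.2 and 12.2 CPM with PP121. Its log2 fold change was 0.57 ± 0.21 (edgeR adjusted p = 0.931) without the block and 0.58 ± 0.16 (adjusted p = 0.157) with it. SPRY1 was at 8.76 and 8.73 CPM in control and 7.27 and 4.97 CPM with PP121, lower in both PP121 samples, with a log2 fold change of -0.51 ± 0.23 (adjusted p = 0.931) and -0.51 ± 0.19 (adjusted p = 0.288) with the block. In all, 4 of 10 members did not overlap between groups, against 34.8% of all genes tested. Without the block 0 of 24123 genes passed (0%), with 1113 at an unadjusted p under 0.05, and DESeq2 called 49 genes and no member. With the block 213 genes passed (0.883%), none of them a member, with 2 members at an unadjusted p under 0.05.

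**Figure D2:**
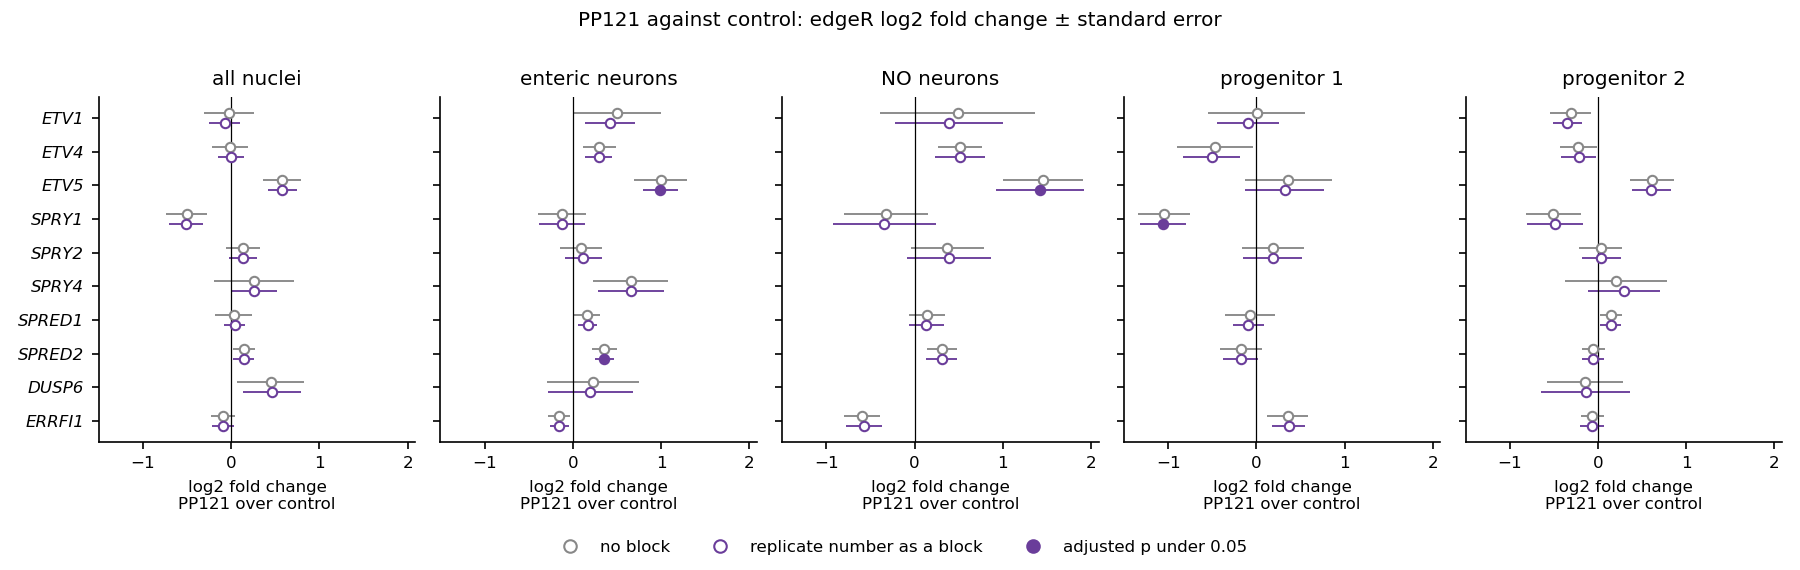
Log2 fold change of PP121 over control (horizontal axes, bars 1 SE) of each gene (vertical axis) in each set of nuclei, in grey without a block and in purple with the replicate as a block, filled where the edgeR adjusted p is under 0.05. Filled points are ETV5 and SPRED2 in enteric neurons, ETV5 in NO neurons and SPRY1 in progenitor 1, all with the block.

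**Figure D3:**
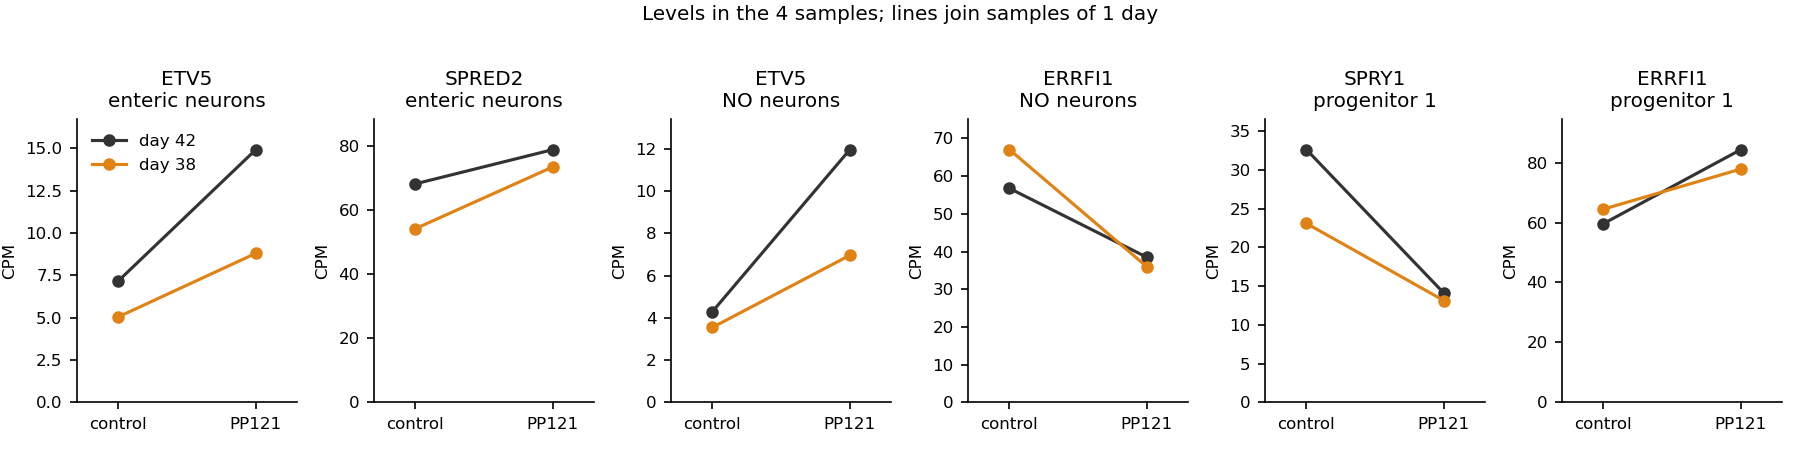
Levels in UMIs per 1000000 (CPM, vertical axes) in control and PP121 samples (horizontal axes), with lines joining the samples of 1 day. ETV5 and SPRED2 are higher with PP121 on both days in neurons, ERRFI1 is lower on both days in NO neurons and higher on both days in progenitor 1, and SPRY1 is lower on both days in progenitor 1.

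The difference between classes in response to PP121 was tested as an interaction of treatment with class over neurons and the progenitors together. No gene of 21787 passed (0%), with 2123 at an unadjusted p under 0.05 and 52 called by DESeq2, none of them a member. Of the members, 9 of 10 had a higher log2 fold change in neurons than in progenitors, with a median difference of 0.48 on the log2 scale, beside 0.0064 over all genes tested. With joint classes 7 of 10 were higher, with a median of 0.29, and 7 to 8 when 1 library was left out. SPRED2 came nearest the threshold, with a difference of 0.48 ± 0.14 (edgeR adjusted p = 0.326), followed by ETV4 at 0.62 ± 0.22 (adjusted p = 0.401), ETV1 at 0.82 ± 0.31 (adjusted p = 0.446) and SPRY1 at 0.66 ± 0.28 (adjusted p = 0.493). So a response that is larger in one class than in the other was not shown for any member.

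Other genes of the pathway were counted from 4 lists of 45 genes: FGF receptors, the RAS-ERK core, other inhibitors and other ERK-responsive genes. Genes of these lists were read only from edgeR fits of the deposited classes, so other tools and class boundaries were not tried for them. Without the block no gene of any kind passed, these included. With the block, 7 of 44 tested rose and 2 fell in enteric neurons, where 14.8% of all genes tested passed. The median log2 fold change of the lists there was 0.06. Among them EGR3 (log2 fold change 1.02 ± 0.22, edgeR adjusted p = 0.00235) and EGR1 (0.42 ± 0.12, adjusted p = 0.0134), transcription factors of the early response to ERK, and FGFR2 (0.55 ± 0.13, adjusted p = 0.00397) and FGFR1 (0.42 ± 0.10, adjusted p = 0.00376) rose. PHLDA1, another ERK-responsive gene, fell by 0.62 ± 0.19 on the log2 scale (adjusted p = 0.0296).

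In progenitor 2, EGR1 (0.62 ± 0.14, edgeR adjusted p = 0.00111), EGR3 (0.69 ± 0.22, adjusted p = 0.0362) and IL17RD (0.69 ± 0.21, adjusted p = 0.0318), a membrane inhibitor of FGF signalling, were the 3 of 42 that rose with the block, a share near the 6.71% of all genes tested. In progenitor 1 the single call of 43, where 3.69% of all genes passed, was also IL17RD (1.23 ± 0.37, adjusted p = 0.0318). BRAF was the only 1 of 38 in NO neurons (0.48 ± 0.13, adjusted p = 0.00421) and FGFR2 the only 1 of 45 over all nuclei (0.75 ± 0.12, adjusted p = 0.0325), where 10.5% and 0.883% of all genes passed.

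The identity of the NO neuron was described next. Within neurons, ETV4 was higher in NO neurons than in other neurons in 3 of 4 samples (means 23.1 ± 4.03 and 18.3 ± 3.46 CPM), and SPRED1 (53.0 ± 4.60 and 59.8 ± 4.72 CPM) and ETV5 (6.70 ± 3.81 and 9.36 ± 4.45 CPM) were lower in all 4. This identity rests on values imputed over these nuclei, so it was not tested. Neurons with at least 1 NOS1 UMI, 20 to 52 nuclei per sample, were tested against neurons without, with the sample as a block. Of 18942 genes 195 passed (1.03%), and 0 of 9 members. At an unadjusted p under 0.05 there was 1 member, SPRED1, at 57.1 and 28.1 CPM in control and 38.9 and 60.8 CPM with PP121 in neurons with NOS1, against 54.3 and 63.6 CPM and 62.5 and 65.5 CPM without (log2 fold change -0.45 ± 0.22, edgeR adjusted p = 0.662). DESeq2 also called no member.

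The replicate numbers gave the other comparison of the design: replicate 2, dated day 38, against replicate 1, dated day 42, with treatment as a term. The day and the differentiation cannot be told apart, since each day is 1 differentiation replicate, and each fit leaves 1 residual degree of freedom. In neurons ETV1 was higher on day 38, at 4.15 CPM in control and 6.74 CPM with PP121, against 2.64 and 2.73 CPM on day 42. Its log2 fold change was 1.04 ± 0.28 (edgeR adjusted p = 0.0158), from 46 to 59 UMIs per sample, with 0.65 in the control samples alone and 1.302 in the PP121 samples alone, and the call was lost with DESeq2, without doublet candidates, with joint classes and without the treatment term. ETV5 was lower on day 38 within each treatment, by a log2 fold change of -0.59 ± 0.20 (adjusted p = 0.0645). Among all genes 2015 of 21243 passed (9.49%). Days did not overlap in 4 of 10 members (ETV1 and SPRED1 higher on day 38, SPRY1 and SPRY4 lower), against 38.2% of all genes tested.

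In progenitor 2 SPRY4 was lower on day 38 than on day 42. It was at 4.59 CPM on day 42 and 1.295 CPM on day 38 in control, and at 4.79 and 2.16 CPM with PP121. These levels came from 41, 7, 38 and 14 UMIs (control and then PP121), and the log2 fold change was -1.38 ± 0.42 (edgeR adjusted p = 0.0416). The antisense gene SPRY4-AS1 was lower on day 38 as well, at 18.9 and 13.0 CPM against 36.1 and 27.9 CPM. Reads of the pair cannot be told apart only in the 1163 bases that they share, 7.26% of the length of SPRY4. The call of SPRY4 was lost without doublet candidates and without the treatment term, and DESeq2 gave it no adjusted p. ETV1 was higher on day 38 by 0.41 ± 0.16 on the log2 scale (adjusted p = 0.167). Among all genes 908 of 18885 passed (4.81%), and days did not overlap in 5 of 10 members, against 37.0% of all genes tested.

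In progenitor 1 no member of 8 tested passed, with 2 at an unadjusted p under 0.05, and none with DESeq2, while 2350 of 16083 genes did (14.6%). SPRED1, at 94.2 and 80.5 CPM on day 42 and 105 and 112 CPM on day 38, had a log2 fold change of 0.47 ± 0.18 (edgeR adjusted p = 0.0559). ETV4, at 16.7 and 11.5 CPM on day 42 and 8.28 and 6.24 CPM on day 38, had one of -0.80 ± 0.33 (adjusted p = 0.0883). Days did not overlap in 4 of the 8 members, against 51.5% of all genes tested.

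The members' levels differed most between days in mesenchymal nuclei, and this comparison was added after the levels had been seen. Of 9 members tested, all were lower on day 38 by the fit, and in 8 of them, all but ERRFI1, both day 38 samples were below both day 42 samples, against 20.5% of all genes tested in this direction and 44.0% in either. The members' median log2 fold change was -1.55, beside 0.03 over all genes tested. The numbers of nuclei were very unequal, at 40 and 33 on day 42 and 408 and 422 on day 38, and the day 42 sums of the ETV and SPRY genes held 3 to 19 UMIs each.

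SPRY4 was at 8.41 CPM in control and 37.0 CPM with PP121 on day 42 and at 3.04 and 1.15 CPM on day 38, from 3 and 11 UMIs and from 11 and 4 UMIs. Its log2 fold change was -3.33 ± 0.81 (edgeR adjusted p = 0.00357), and it was -1.47 in the control samples alone and -5.01 in the PP121 samples alone, where the day 42 sum held 11 UMIs in 33 nuclei. SPRY4-AS1 was at 92.5 and 87.5 CPM on day 42 and at 22.4 and 10.7 CPM on day 38. ETV5 was at 42.04 and 37.0 CPM on day 42 and 13.0 and 9.50 CPM on day 38 (log2 fold change -1.86 ± 0.54, adjusted p = 0.0229). ETV1 was at 30.8 and 63.9 CPM on day 42 and 18.2 and 14.1 CPM on day 38 (log2 fold change -1.55 ± 0.49, adjusted p = 0.0456), with -0.76 in control alone and -2.18 with PP121 alone. These 3 passed, as did 632 of 14387 genes (4.39%).

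SPRY1 (22.4 and 23.6 CPM on day 42, 9.12 and 2.30 CPM on day 38) and SPRY2 (19.6 and 16.8 CPM against 4.70 and 3.17 CPM) were lower on day 38 without passing, with log2 fold changes of -2.20 ± 0.73 (edgeR adjusted p = 0.0686) and -2.25 ± 0.77 (adjusted p = 0.0810). ERRFI1 overlapped between the days, at 86.9 and 53.8 CPM against 75.2 and 55.3 CPM. All 3 calls were lost without doublet candidates, with joint classes and without the treatment term, and those of ETV5 and ETV1 with DESeq2, which gave SPRY4 no adjusted p. In these fits all 9 members were lower on day 38.

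Other cell type markers moved with the day in these nuclei. The 4 epithelial markers summed to 92.5 and 43.7 CPM on day 42 and to 22.9 and 13.5 CPM on day 38, with 3 of the 4 lower in both day 38 samples, and the cycling markers MKI67 and TOP2A, both higher in both day 38 samples, to 11.2 and 10.1 CPM and to 55.8 and 85.0 CPM. The 6 mesenchymal markers were at 2209 and 1945 CPM on day 42 and 2366 and 2609 CPM on day 38. The part of these in the result was not tested.

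**Figure D4:**
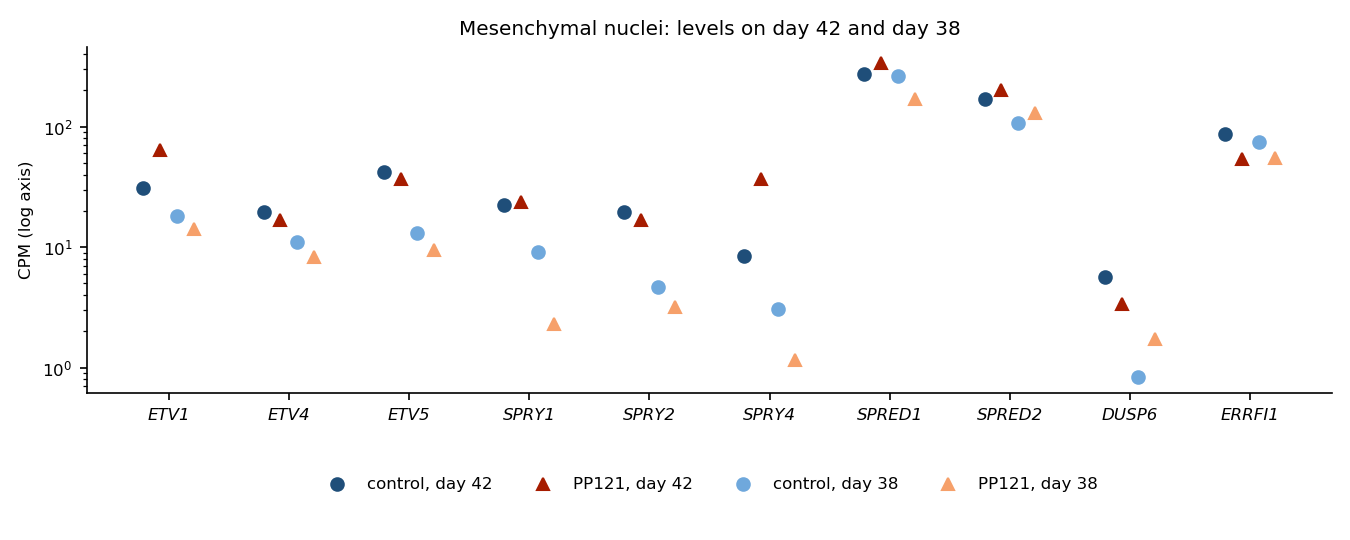
Levels in UMIs per 1000000 (CPM, log axis) of each gene in mesenchymal nuclei of the 4 samples, with the day 42 samples (40 and 33 nuclei) left of the day 38 samples (408 and 422 nuclei). Both day 38 values lie below both day 42 values for each gene but ERRFI1, with DUSP6 at 1 to 6 UMIs per sum.

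Of the other genes of the pathway, FGFR2 was higher on day 38 than on day 42 in all 4 classes tested. Its log2 fold changes were 0.86 ± 0.13 in neurons (edgeR adjusted p = 3.83e-05), 1.04 ± 0.20 in progenitor 1, 0.79 ± 0.12 in progenitor 2 and 2.85 ± 0.40 in mesenchymal nuclei. EPHA4 was higher on day 38 in neurons (0.76 ± 0.11), progenitor 1 (0.86 ± 0.16) and progenitor 2 (0.59 ± 0.11). In progenitor 1, 10 of 43 tested passed as higher on day 38 and none as lower, where 14.6% of all genes passed in either direction. KSR1, a scaffold of the RAS-ERK pathway (0.82 ± 0.16, edgeR adjusted p = 2.74e-05), and FGFR3 (0.78 ± 0.21, adjusted p = 0.00385) were among them. EGR1 was lower on day 38 by 1.10 ± 0.31 on the log2 scale in mesenchymal nuclei (edgeR adjusted p = 0.0186), and PHLDA1 by 0.66 ± 0.20 in neurons (adjusted p = 0.0309).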

How the data were processed

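The authors deposited a table of raw UMI counts per gene and nucleus for each of the 4 samples, and an annotation of nuclei with class, transmitter identity, day and the percent of mitochondrial reads. The submitters' processing notes name Cell Ranger, GRCh38 and Seurat 4.0.4, whereas the study's methods name kallisto and bustools, and which made these counts was not settled here. Groups came from the labels. Nuclei that the authors had filtered out were dropped. The members and lists were chosen with earlier results of these data known.

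Counts were summed per class and sample (Python 3.11.15, scanpy 1.11.5, pandas 2.3.3) and tested in R 4.3.3 with edgeR 4.0.16: library sizes scaled by TMM, filterByExpr to drop genes of few counts, the quasi-likelihood test and Benjamini-Hochberg adjustment over all genes tested, with a threshold of 0.05. DESeq2 1.42.0 was an alternative, as were no filter on low counts, removal of the 5% of nuclei with the highest doublet scores, joint clusters of all samples, other nuclei within the quality limits, and leaving out each sample. The doublet caller itself marked 0 to 3 nuclei per sample and had not worked. Doublets were otherwise not removed here. Levels are UMIs per 1000000 of the sum. Genes were named as members, as the 3 most like a member, or as pathway genes called, at most 5 per comparison. Annotated depth was 23348045 to 34123759 UMIs per sample, and 1 UMI in a small class is coarse.

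The replicate numbers were taken to pair the samples, since each number has its own deposited day in both groups. A shared day does not show a shared differentiation. The deposited column that names another sample for both control samples also leaves the pairing unsettled, and the calls with the block rest on it. The deviations of same-numbered samples from the mean of their group were correlated, at r = 0.70 over all nuclei, 0.61 in neurons, 0.58 in progenitor 1, 0.45 in progenitor 2 and 0.24 in NO neurons. The fit without the block leaves 2 residual degrees of freedom and the fit with it 1. The mesenchymal comparison, the comparisons between single classes and the fits that join the block to another choice were added after seeing the data.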

Additional observations from a re-analysis of the deposited data

Results flagged for a closer look

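The PP121 difference of ERRFI1, an inhibitor of EGFR-family receptors, had opposite signs in progenitor 1 and in the classes beside it. Both PP121 samples were higher in progenitor 1 and lower in neurons and progenitor 2. In comparisons added after seeing the data, the log2 fold change in neurons minus that in progenitor 1 was -0.51 ± 0.22 (SE), with an edgeR unadjusted p of 0.0366 and an adjusted p of 0.720. That in progenitor 1 minus that in progenitor 2 was 0.42 ± 0.24 (unadjusted p = 0.0980, edgeR adjusted p = 1.00). Neither passed the correction. With joint classes the differences were -0.59 (adjusted p = 0.965) and 0.50 (adjusted p = 1.00).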

How the results depend on the processing

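Of the members tested for PP121 in enteric neurons, 0 were called without a block, 2 with the replicate block, 1 with the block and joint classes, 2 with the block and doublet candidates removed, and 0 to 1 when a sample was left out (1 without PP121 replicate 2). In progenitor 1 the block gave 1 and the block without doublet candidates 1, in progenitor 2 the block with joint classes gave 1, and in NO neurons the block gave 1. Of all genes tested, the block called 14.8% in neurons, 3.69% in progenitor 1 and 10.5% in NO neurons. With the block and joint classes 1307 of 21479 genes passed in neurons and 896 of 18900 in progenitor 2. With the block and doublet candidates removed, 2747 of 20940 passed in neurons and 610 of 15746 in progenitor 1. For the day, the 1 member called in neurons became 0 with DESeq2, without doublet candidates, with joint classes and without the treatment term, and 2 with no filter on low counts. Of all genes 9.49% passed there, and 2321 of 31648 with no filter. The 1 called in progenitor 2, SPRY4, became 0 with DESeq2 (which gave it no adjusted p), without doublet candidates and without the treatment term, and the 3 in mesenchymal nuclei became 0 with DESeq2, without doublet candidates, with joint classes and without the treatment term. Of all genes tested, 4.81% had passed in progenitor 2 and 4.39% in mesenchymal nuclei. ETV1 for PP121 in progenitor 2 ranged from -0.70 to 0.0021 on the log2 scale when a sample was left out, and changed sign without PP121 replicate 1. The cause was not tested.

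Over all genes, PP121 calls ranged over the alternatives from 0 to 673 in all nuclei, 0 to 3152 in neurons, 0 to 610 in progenitor 1, 0 to 1267 in progenitor 2 and 0 to 1594 in NO neurons, and interaction calls from 0 to 514. Day calls ranged from 0 to 2321 in neurons, 0 to 2350 in progenitor 1, 0 to 970 in progenitor 2 and 186 to 632 in mesenchymal nuclei, and NOS1 calls from 36 to 246. Leaving out a sample in the day comparisons left no residual degrees of freedom, so it gave values with no test. Beyond the calls named, the block changed no other call of a member. SPRY4 and DUSP6 had few UMIs, which limits their detection at this depth.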
